A study of Drosophila melanogaster with 2 samples.

Results

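Protein-coding genes whose body holds 10 or more reproducible binding summits of the fly protein CG8216 are described here, gene by gene. CG8216, also named spab, was mapped by chromatin immunoprecipitation followed by sequencing (ChIP-seq) with an antibody against GFP. The material was whole prepupae of pooled sex from a transgenic line that stably expresses CG8216 with GFP at its C-terminus, in 2 biological replicates, and sonication gave fragments of 200 to 800 bp per the labels. The labels give an age of 24 days, longer than flies usually take to reach this stage, and do not name the promoter that drives the tagged copy. There is a single group with no other genotype, treatment or time, so each comparison is between genes, between stretches of a gene or between the replicates.

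The list of reproducible peaks, thresholded by its authors on the irreproducible discovery rate (IDR), holds 5944 summits on genome release dm6. A gene was chosen when at least 10 of these summits lay between its annotated ends, and 15 genes that the rule names were left out: sbb, Tet, shn, Snoo, E2f1, Mnt, ush, Eip75B, EcR, br, Eip74EF, Eip93F, Antp, InR and foxo. Of 13945 protein-coding genes, 46 (0.33%) reached 10 summits, 9 of the 15 left-out genes were among them, and the remaining 37 (0.265%) are the genes described. The genes were chosen by the summit counts of this list, so counts, densities, spacing and signal are given as descriptions with no test. The 37 genes held 470 summits, none counted for more than 1 of them, which is 7.91% of the list (95% CI 7.23 to 8.62%) in 2.63% of the genome. Of the genes, 10 lie on X, 8 on 3L, 8 on 3R, 7 on 2L and 4 on the right arm of chromosome 2, with 20 on the plus and 17 on the minus strand.

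In ChIP-seq, chromatin fragments cross-linked to a tagged protein are pulled down with an antibody and sequenced, and a summit is a point of high read pile-up in a peak. Some peak intervals in the list hold a pair of summits, as in psq and Svil, so summit counts are not counts of separate peaks. Whole animals mix all tissues, so a gene with many summits may carry them all in the same nuclei or different ones in different tissues, and the data do not separate these. Long fly genes often hold much of their regulatory sequence, including enhancers and alternative promoters, in large introns.

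A 7-letter word, CAGTGCA or CAGTGTA, stood within 100 bp of 79 of the 470 summits, searched on both strands. The strongest summit with this word in each of 6 of the genes with the most summits is given here, because these windows show both the word and the bases before it. Sequence is from the RefSeq copy of release 6, read 5′ to 3′ along the word, with the word in capitals, and each window is 77 bases long.
kirre, chrX:3044892-3044968, minus strand: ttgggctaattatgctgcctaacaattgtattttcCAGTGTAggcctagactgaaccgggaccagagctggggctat
CG1677, chrX:7302556-7302632, plus strand: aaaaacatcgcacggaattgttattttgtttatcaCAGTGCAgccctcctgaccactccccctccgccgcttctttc
CG43658, chrX:17537501-17537577, plus strand: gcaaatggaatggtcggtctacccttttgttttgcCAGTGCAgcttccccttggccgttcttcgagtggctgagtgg
Tlk, chrX:3742208-3742284, minus strand: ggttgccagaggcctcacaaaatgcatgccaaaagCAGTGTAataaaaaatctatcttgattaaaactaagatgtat
Svil, chr3L:2494382-2494458, plus strand: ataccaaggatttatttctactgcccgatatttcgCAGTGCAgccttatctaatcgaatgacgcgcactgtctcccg
mtgo, chr2L:16598563-16598639, plus strand: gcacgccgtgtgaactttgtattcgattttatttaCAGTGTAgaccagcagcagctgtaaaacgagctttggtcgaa

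In 5 of these 6 windows the summit lay before the word, by 25 bp in CG43658, 35 bp in kirre, 55 bp in mtgo, 66 bp in CG1677 and 85 bp in Svil. In the Tlk window it lay 12 bp after the word, and that window also lacks the run of T. The Svil window lies at a start site, and the other 5 lie in introns. Their signals ran from 211 in CG43658 to 1392 in Tlk. Signal is the peak value deposited by the authors for both replicates pooled, or for 1 replicate where named, in units of the peak caller that no label or header explains.

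A pair of windows from aop, the most densely occupied of the 37 genes, carries a second word as well. CACTGAG reads CTCAGTG on the other strand, which shares its last 5 letters with the first word, so that CTCAGTGCA holds both. These windows were picked after their values were seen, are given on the plus strand, and have all copies of both words in capitals.
aop, chr2L:2164878-2165047, signal 1247: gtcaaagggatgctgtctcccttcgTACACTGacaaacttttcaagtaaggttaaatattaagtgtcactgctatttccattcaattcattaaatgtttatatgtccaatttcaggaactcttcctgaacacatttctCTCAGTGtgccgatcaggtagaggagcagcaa
aop, chr2L:2163704-2163747, signal 1021: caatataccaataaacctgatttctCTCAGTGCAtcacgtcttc

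In the first aop window, CAGTGTA stands on the minus strand, printed as TACACTG, and 106 bp separate it from CTCAGTG. In the second the words overlap by 5 bases. These are the strongest summits of aop, with 630 in replicate 1 and 620 in replicate 2 at the first and 501 and 512 at the second. aop, also called Yan, is an ETS-domain repressor that acts below receptor tyrosine kinase signalling.

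The words were about as frequent at summits inside the 37 genes as at summits elsewhere. CAGTGCA or CAGTGTA stood in the 200 bp window of 16.8% of the 470 summits (95% CI 13.5 to 20.5%), against 17.2% of the 5474 other summits. In windows of the same size centred 500 bp away it stood in 3.62% for the 37 genes, and it stood in 5.03% of all 200 bp tiles along them. This word was found in this same list of summits, which favours a higher share at summits in advance, so the difference was not tested. CACTGAG stood in 8.09% of the 470 windows, 6.59% of windows at other summits, 0.638% of flanking windows and 1.93% of tiles. The GA repeat GAGAGAG, the kind of run bound by GAGA factor, was in 4.68% of the 470 windows, 4.97% of the other summits and 6.38% of the flanking windows. It was in 3.15% of tiles, so its share at summits lay between these backgrounds, and in 5.01% of flanking windows at the other summits. At least 1 of the first word and CACTGAG stood at 99 of the 470 summits (21.1%) and at 19.6% of the others, and 371 of the 470 had none of them. The first word and CACTGAG stood together at 18 summits, and at 12 of these windows they overlapped as one run.

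The position of the word relative to the summit was lopsided. Within 200 bp of the summits of the 37 genes, 115 of 144 matches (79.9%) lay downstream of the summit when read along the word, at a median of 82 bp, against 79.1% and 88 bp for 1879 matches at other summits. The bases before the word were rich in T. Over the 5 positions from 7 to 3 bases before it, T made up 62.8% of bases at summits in the 37 genes, 60.9% at other summits and 39.8% at copies of the same word in the 37 genes that lay more than 500 bp from any summit. The 144 matches in the 37 genes stand for 143 distinct ones, and the 1879 at other summits for 1840. The shares of T are over distinct matches. All 143 had different 27-base surroundings, so no repeated sequence was counted again among them. CTCAGTG had 61 distinct matches in the same windows, 19 of them followed by CA or TA, and T made up 64.6% of the same 5 positions before its CAGTG. Signal was much the same with and without the first word, at medians of 294 for 79 summits and 281 for 391.

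**Figure D1:**
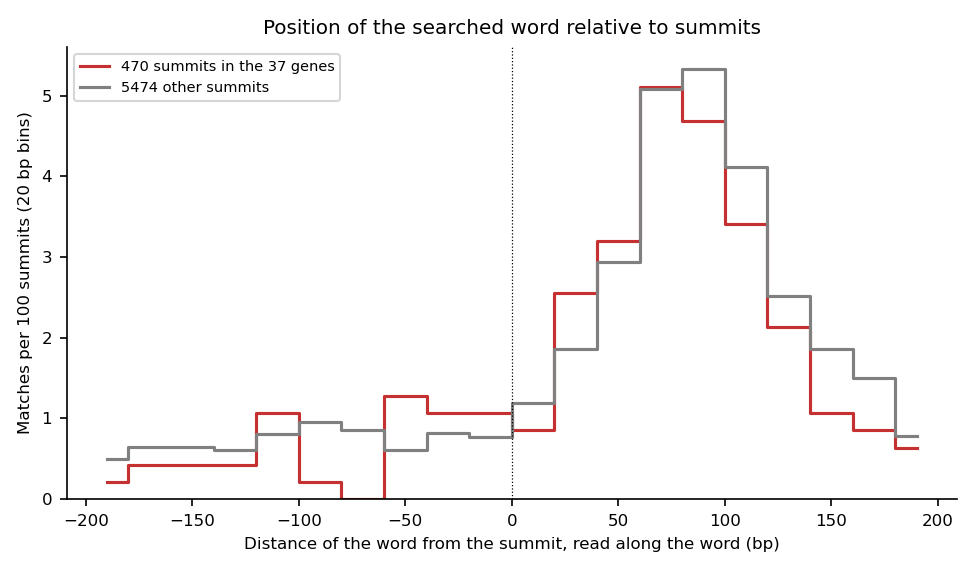
Matches of CAGTGCA or CAGTGTA per 100 summits (vertical axis) in 20 bp bins of distance from the summit in bp (horizontal axis), read along the word, for the 470 summits in the 37 genes (red) and the 5474 other summits (grey). Both lines peak to the right of the summit, where 79.9% of matches lie in the 37 genes and 79.1% elsewhere.

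Genes differed in how many of their summits carried a word. In kirre 12 of 28 summits had the first word and 10 had CACTGAG, and in plum, which encodes an immunoglobulin-superfamily protein, CACTGAG stood at 5 of 10. Of the 37 genes, 32 had the first word at 1 summit or more. The 5 with none were psq, tara, mamo, Eip63E and Tis11, which hold 10 to 14 summits each. Neighbouring summits of a gene share its sequence context, so these counts describe genes and are not replicates.

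Taken by number of summits, 12 of the 37 genes held exactly 10, 23 held 11 to 19, and kirre with 28 and CG1677 with 23 stood above. The median was 11. The genes were 22.3 to 394 kb long with a median of 84.4 kb, against 12.8 kb for the 1618 protein-coding genes with 1 to 9 summits. Relative to length, they held a median of 1.36 summits per 10 kb (quartiles 1.05 and 2.36), against 1.39 for genes with 1 to 9, which are shorter and enter with 1 summit. The 867 protein-coding genes that are at least as long as the shortest of the 37 and hold fewer than 10, many of them none, had a median of 0.26 (quartiles 0 and 0.741), a difference that the limit of 10 itself favours. The genome as a whole held 0.444 per 10 kb, and the 37 genes held a median of 3.05 times the number their length would give at that mean (range 1.39 to 10.1).

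Many long genes held few summits or none. Of 913 protein-coding genes at least as long as aop, the shortest of the 37, 46 held 10 or more and 363 (39.8%) held none. Of 83 genes of 100 kb or more, 15 held 10 or more (14 of them among the 37), 16 held 5 to 9, 25 held 1 to 4 and 27 held none. Of these 27, 11 held 0 and 5 held 1 to 3 summits even in the relaxed pooled list of 30000, which includes background, and the 37 genes held a median of 43 there. Whether reads can be placed along those genes was not measured here, so a count of 0 there is not shown to be a lack of binding. Within the 37, length and the number of summits had a Spearman correlation of 0.32, and the number of annotated start sites and summits one of 0.37. Length and density had one of −0.90, a relation that the lower limit of 10 summits builds in. The genes had a median of 3 start sites (range 1 to 16, in Svil), against 2 in genes with 1 to 9 summits.

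The limit of 10 fell in a continuous range. With 10 summits, the largest summed signals were those of CG33158 (4445), aop (4321), jing (4307) and sick (3653). Just outside, 21 genes held 9, of which CHES-1-like (5351), dlp (4908), Btk (4811) and pum (4604) had the largest sums. Among these 21, Glut4EF and CG46467 overlap and hold the same 9 summits, which are counted for both. Genes with 9 had a median length of 80.4 kb and a median of 1.12 summits per 10 kb. The 9 left-out genes that reached 10 had a median length of 64.3 kb and 2.69 summits per 10 kb.

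**Figure D2:**
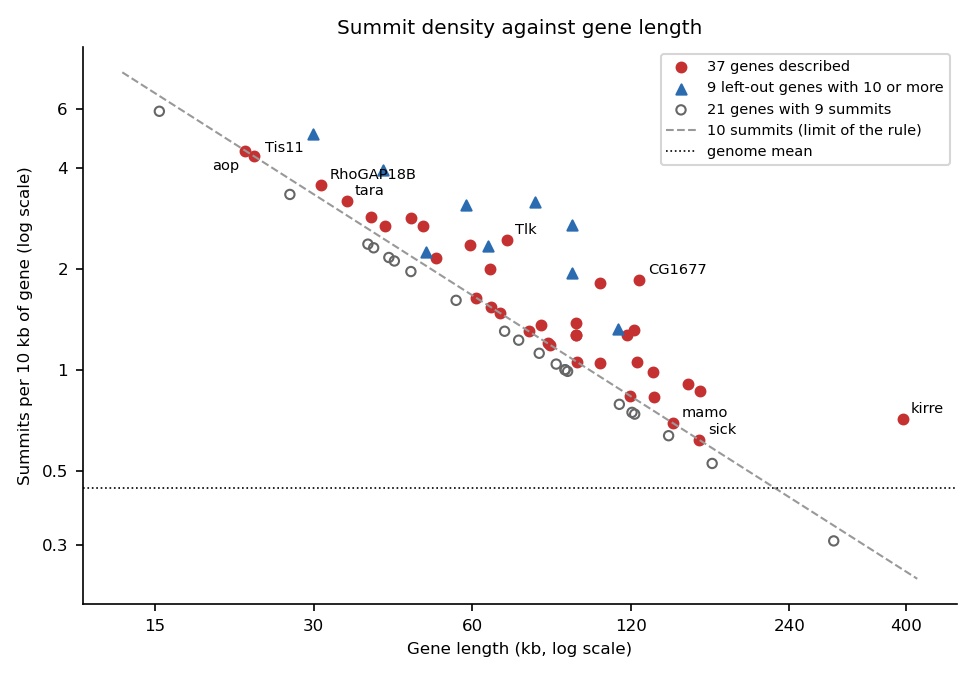
Summits per 10 kb of gene (vertical, log scale) against gene length in kb (horizontal, log scale) for the 37 genes (red), the 9 left-out genes with 10 or more summits (blue) and the 21 genes with 9 (open circles). The dashed line is 10 summits, the limit of the rule, on which 12 of the 37 genes lie, and the dotted line is the genome mean of 0.444.

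The longest of the 37 genes was kirre. It encodes an immunoglobulin-domain protein of myoblast fusion and lies at chrX:2740384-3134532 on the plus strand. Its 28 summits spread over 394 kb at 0.710 per 10 kb, with 6 in its 5′ part, 4 in its middle part and 18 in its 3′ part, where a part is 1 of 3 equal lengths. Up to 71.5 kb of it had no summit at all. Within its 3′ part, 6 summits fell in 10 kb, 299.6 to 307.6 kb from its 5′ end, with signals of 616, 493, 394, 633, 829 and 437, and 5 of these 6 carried at least 1 of the words. The strongest summit of the gene had 834, with 417 in replicate 1 and 423 in replicate 2. It lay in a stretch that kirre shares with the annotated gene CG32795, as did 3 other summits. The 28 summits summed to 11183, the largest of the 37 genes.

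Ptp61F, a protein tyrosine phosphatase, spread 11 summits over 133 kb, at 0.829 per 10 kb. Its strongest summit had 759 in the pooled list, with 374 in replicate 1 and 403 in replicate 2. The next reached 361 in the pooled list. Of the 11, 3 also lay in ru, which encodes a rhomboid protease of the EGF receptor pathway, so both genes share these positions. ed, which encodes the adhesion molecule Echinoid, had 10 summits in 84.4 kb and the weakest set of the 37 genes. Its signals ran from 154 to 399, the strongest with 158 in replicate 1 and 246 in replicate 2. None of its summits lay within 500 bp of its 1 annotated start site. plum held 10 in 65.1 kb, all of them in its longest intron by position, with signals of 150 to 620.

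Receptors and signalling proteins formed a broad group. fz and fz2 encode Frizzled receptors, which take part in planar polarity and Wnt signalling, and each held 12 summits in 94.3 and 94.4 kb. Neither gene had a summit inside its body within 500 bp of its own start sites, and the stretch upstream of the outermost start site was not searched. The first summit of fz lay 23.3 kb from its 5′ end and that of fz2 41.1 kb. The strongest summit of fz, with 421 in replicate 1 and 486 in replicate 2, lay 90.5 kb down the gene. In fz2 the strongest had 414 in replicate 1 and 489 in replicate 2, carried the word and lay 62.1 kb down.

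Raf encodes the MAP kinase kinase kinase below Ras. It held 13 summits in 48.4 kb, and 8 of them fell in its 5′ part. The strongest, in an intron 5.22 kb from the 5′ end, had 756 in replicate 1 and 732 in replicate 2. cic, an HMG-box repressor that acts below the same pathway, held 11 in 51.2 kb, the strongest with 490 in replicate 1 and 558 in replicate 2. rdx, also called roadkill, a BTB adaptor for a Cul3 ubiquitin ligase that targets Ci, held 13 in 65.0 kb, of which 11 lay in its longest intron, and its strongest summit had 557 in replicate 1 and 599 in replicate 2. Both genes thus had a strongest summit with more signal in replicate 2. Tlk, the tousled-like kinase, held 17 in 69.8 kb, and its strongest summit had 736 in replicate 1 and 641 in replicate 2. Eip63E, an ecdysone-induced cyclin-dependent kinase, held 10 in 94.8 kb, none in its 3′ part, with a longest empty stretch of 43.2 kb.

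RapGAP1 and RhoGAP18B encode GTPase-activating proteins, and their summits were laid out differently. In RapGAP1, 11 summits in 81.2 kb included a pair of strong ones at start sites. The first, 2.14 kb from the 5′ end, had 562 in replicate 1 and 620 in replicate 2, and the second, 48.2 kb along, had 790 and 768. The second alone held 30.9% of the summed signal of the gene, the highest share among the 37 genes, where the median was 20.1%. In RhoGAP18B, 11 summits lay in 31.0 kb at 3.55 per 10 kb, 8 of them within 10 kb, with no signal above 579. CG43658 held 19 in 105 kb. Its strongest summit, at a start site, had 1375 in the pooled list, with 597 in replicate 1 and 769 in replicate 2. The next strongest reached 425 in the pooled list.

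Transcription factors and their partners differed in how evenly signal was shared among their summits. psq, a BTB-domain DNA-binding protein, held 14 summits in 59.4 kb and the strongest single summit of the 37 genes. That summit had 1633 in the pooled list, 743 in replicate 1 and 860 in replicate 2, and lay at one of its start sites. hth, a homeodomain protein, held 13 in 132 kb with no dominant one, since all lay between 206 and 422. jing, a zinc finger protein, held 10 in 120 kb, 9 of them in its longest intron of 107 kb. Its strongest summit had 384 in replicate 1 and 470 in replicate 2. tai, a coactivator of the ecdysone receptor, held 10 in 83.4 kb, the strongest with 411 in replicate 1 and 410 in replicate 2. mamo, a BTB zinc finger protein, held 10 in 144 kb at 0.692 per 10 kb, with the strongest, 257 in replicate 1 and 214 in replicate 2, at a start site 1.53 kb from the 5′ end.

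The proteins that act on chromatin or RNA included tou, tna, brat and Tis11. tou, a chromatin remodelling protein, held 11 summits in 38.6 kb at 2.85 per 10 kb, and its 3′ part held none. tna, a SUMO-ligase-like partner of the Brahma complex, held 11 in 41.0 kb, with 8 of them within 10 kb. Its strongest summit had 658 in replicate 1 and 620 in replicate 2. brat, an NHL-domain translational repressor, held 13 in 45.9 kb at 2.83 per 10 kb. Its strongest summit, 3.04 kb from the 5′ end, had 573 in replicate 1 and 570 in replicate 2 and carried the word. Tis11, which promotes decay of mRNAs with AU-rich elements, held 10 in 23.1 kb at 4.32 per 10 kb, with signals of 170 to 573 and no copy of the word at any of them. tara, a SERTAD-family protein, held 11 in 34.7 kb at 3.17 per 10 kb, the strongest with 588 in replicate 1 and 596 in replicate 2.

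aop had the highest density of all, with 10 summits in 22.3 kb, or 4.49 per 10 kb and 10.1 times the number expected from its length. It had a summit 0.259 kb from its 5′ end that was matched in replicate 1 but not in replicate 2. The pair of strong summits printed above lay 13.8 and 15.1 kb down the gene, and the stronger held 28.9% of the summed signal.

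Cytoskeletal and junction genes included Svil, a supervillin-like member of the villin family, with 16 summits in 122 kb and 4 at its own start sites. The strongest of these 4 had 637 in replicate 1 and 575 in replicate 2. pyd, the fly homologue of ZO-1, held 11 in 105 kb, and its strongest had 547 in replicate 1 and 595 in replicate 2. bbg, a PDZ protein, held 13 in 123 kb, 3 of them at its own start sites, where the strongest had 569 in replicate 1 and 622 in replicate 2. SKIP, which encodes a protein that interacts with the Shal potassium channel, held 14, all in the first 71.9 kb of its 162 kb, so that 55.7% of the gene lay in 1 empty stretch. sick held 10 in 162 kb and was the most sparsely occupied, at 0.617 per 10 kb. Its strongest, at a start site 99.4 kb from the 5′ end, had 340 in replicate 1 and 396 in replicate 2.

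Of the genes that fit no group above, mtgo held 15 summits in 118 kb, 11 of them in its middle part and 8 within 10 kb. Its strongest, at a start site, had 668 in replicate 1 and 704 in replicate 2. heca, which encodes Headcase, held 13 in 94.5 kb, the strongest in an intron with 440 in replicate 1 and 453 in replicate 2. px, or plexus, held 10 in 67.8 kb. One summit at a start site of px, with 457 in replicate 1 and 467 in replicate 2, held 27.8% of the summed signal. It had 924 in the pooled list, where the next strongest reached 425.

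CG1677 was the most clustered of the 37 genes. It lies at chrX:7281089-7405797 on the minus strand, and its first 68.7 kb held no summit. All 23 summits fell inside its longest intron of 72.5 kb, with a median gap of 849 bp, and up to 9 of them within 10 kb. The strongest, 80.8 kb from the 5′ end, had 569 in replicate 1 and 664 in replicate 2. That intron also hosts other annotated genes, and 3 summits lay in Dok, Atg5 and unc-119, 1 in each. CG33158 had a like layout, with 57.8% of its 77.0 kb empty and 9 of 10 summits in its 3′ part, of which 4 lay in aos, the gene of a secreted EGF receptor antagonist. CG32816 held 14 in 154 kb, 5 of them inside CG3777, with no signal above 531. CG12535 held 10 in 61.0 kb, with none above 620, and 4 of its 9 gaps were under 1 kb. Over all 37 genes, 20 of the 470 summits, in 6 genes, lay in another protein-coding gene as well.

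**Figure D3:**
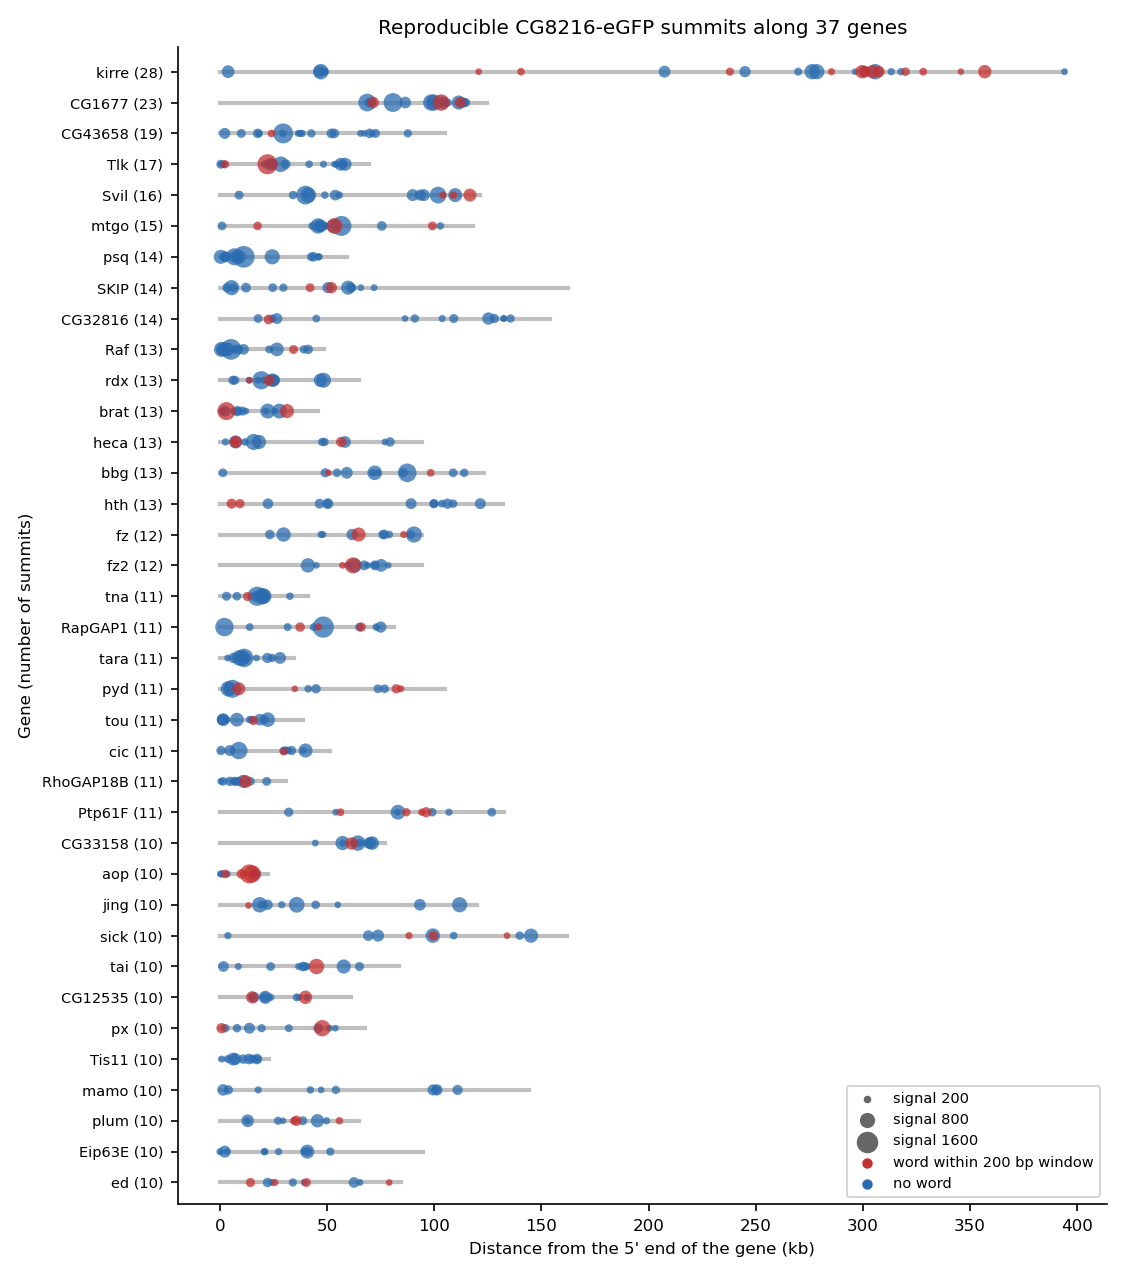
Each row is 1 of the 37 genes (number of summits in brackets), drawn as a grey bar from its 5′ end (horizontal axis, kb). Each point is a summit, its area proportional to signal and its colour red where CAGTGCA or CAGTGTA stands within 100 bp. kirre carries 18 of 28 summits in its 3′ part, CG1677 has none in its first 68.7 kb, and aop packs 10 into 22.3 kb.

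By the lists of gene classes that were used to order the genes, 4 of 187 transcription factors were among the 37 (psq, hth, jing and tai), and so were 2 of 69 chromatin genes, 1 of 62 RNA-binding genes, 3 of 114 in the list of adhesion, guidance and matrix genes (kirre, ed and the phosphatase Ptp61F), 3 of 153 signalling genes and 1 of 101 genes of cytoskeleton, junctions and trafficking. None of 78 ion channel and neuronal receptor genes or of 92 metabolic genes was. In all, 14 of 853 listed genes (1.64%) were among the 37, beside 0.265% of all protein-coding genes. The listed genes were also longer, with a median of 13.6 kb against 2.17 kb for all. The other 23 of the 37 genes stand in no list. The lists are not complete, since aop, cic, mamo, Tis11, Raf, Tlk and Svil are among these 23. Nothing is claimed of any class from these counts.

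Summits inside the genes were mostly intronic. Of the 470, 410 (87.2%) lay in introns, which make up 81.1% of the bases of these genes, and 55 (11.7%) lay within 500 bp of an annotated start site of any gene, a class with 7.45% of the bases. The start-site class took precedence over all others, followed by 5′ untranslated regions. Outside these classes, no summit lay in coding sequence or in a 3′ untranslated region, which there make up 6.28% and 3.78% of the bases. A count of 0 allows at most 0.782% (upper exact 95% limit). A further 2 lay in 5′ untranslated regions and 3 in other exons. Elsewhere in the genome, 30.5% of summits were at start sites, 44.6% in introns and 22.2% between genes. The rule admits only summits inside gene bodies, so none of the 470 could lie between genes, and part of this difference is built in.

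Start sites of the host gene itself drew a small part of the summits. Within 500 bp of one lay 35 of 470 (7.45%, 95% CI 5.24 to 10.2%), in 20 of the 37 genes, in windows that cover 3.30% of the bases. Only summits and bases between the annotated ends of a gene were counted. Summits upstream of its outermost start site are therefore left out, and the other genes are not shown to lack one there. The median summit was 7927 bp from the nearest start site of its gene. Cut into 3 equal lengths, the genes held 158 summits in their 5′ parts, 158 in the middle and 154 in their 3′ parts. The longest intron of each gene together held 247 summits (52.6%) in 41.6% of the length.

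Neighbouring summits lay closer together than uniform placement of the same numbers in the same genes would give. The median of 433 gaps was 2760 bp (quartiles 1070 and 6851 bp). Gaps under 1 kb made up 21.9% (95% CI 18.1 to 26.1%), against 15.5% for independent uniform placement, and gaps over 10 kb made up 18.5% against 22.8%. In 33 of the 37 genes the median gap was below that of uniform placement. The surplus was largest from 200 to 400 bp, with 37 gaps against 14.0, and from 0.8 to 1.6 kb, with 79 against 46.7. The closest pairs lay just above a lower limit, with 38 gaps of 250 bp or less and none shorter than 199 bp, which is also the smallest distance in the whole list. Some of these pairs share the same peak interval, as in psq, Svil and tna, and whether they are separate sites was not tested. With chains of summits within 500 bp counted once, 26 genes kept 10 and their median gap was 3560 bp.

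**Figure D4:**
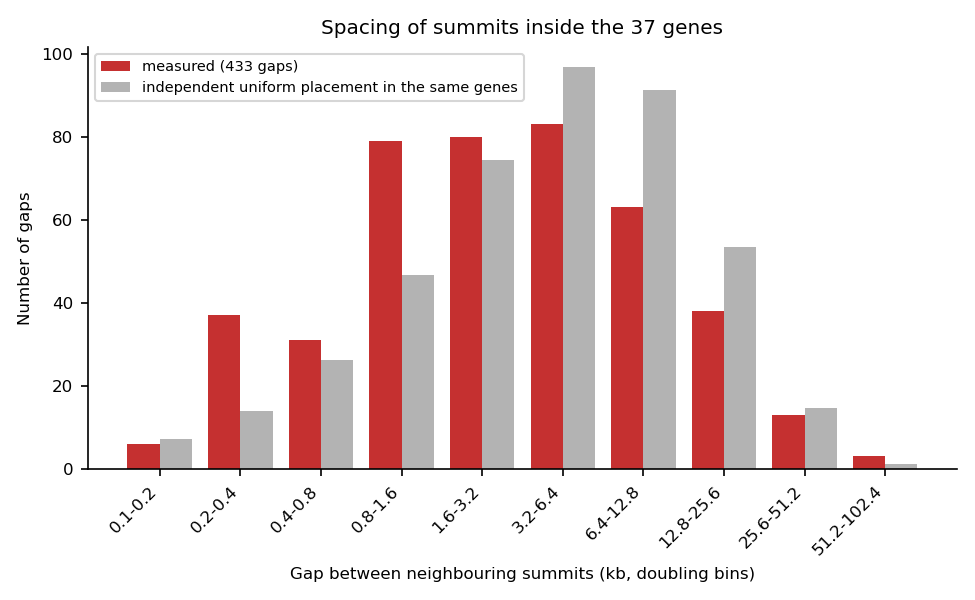
Number of gaps between neighbouring summits (vertical axis) in doubling bins of gap length in kb (horizontal axis) for the 37 genes (red, 433 gaps) and for independent uniform placement of the same numbers in the same genes (grey, calculated). Measured gaps exceed the calculated number from 0.2 to 3.2 kb, as with 79 against 46.7 at 0.8 to 1.6 kb, and lie below it from 3.2 to 51.2 kb.

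Spacing varied widely from gene to gene. The smallest median gaps were those of CG1677 (849 bp), aop (915 bp), CG12535 (1061 bp) and psq (1142 bp). The largest were those of sick (9521 bp), jing (6993 bp), tai (6914 bp) and mamo (6890 bp). At most 3 to 9 summits of a gene fell within any 10 kb, with a median of 5. The longest stretch with no summit took 16.5 to 57.8% of the gene, with a median of 29.4%.

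In its median and quartiles, signal inside the genes was like that of the rest of the list. The 470 summits had a median signal of 284 (quartiles 198 and 484), against 278 elsewhere (quartiles 196 and 470). Above the median signal of the whole list were 51.3% of them, and 49.9% of the others. Of the 100 strongest summits of the list, 2 were in these genes, the psq summit at rank 78 and the RapGAP1 summit at rank 85. That is a smaller share than the 7.91% of the whole list that these genes hold. The rule left out ush and Tet, whose strongest summits rank 3 and 52. Within the genes, the 55 start-site summits had a median of 331 and the 410 intronic ones one of 277. Signals of neighbouring summits in a gene had a Spearman correlation of 0.05 over 433 neighbouring pairs, which share genes and libraries.

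The strongest summit of a gene seldom dwarfed the next. Its signal was a median of 1.26 times that of the second strongest (range 1.00 to 3.24), and it was more than 2 times as high in 3 genes, CG43658, px and Ptp61F. It lay in an intron in 25 of the 37 genes, within 500 bp of a start site of its own gene in 9, and carried the first word in 7 (Tlk, brat, fz2, aop, tai, CG12535 and px). At these summits replicate 1 had the higher signal in 15 genes and replicate 2 in 22.

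Both replicates held most of the summits, as the authors' threshold on reproducibility between these libraries favours by its construction. A summit within 100 bp was found in both relaxed replicate lists for 451 of 470 (96.0%, 95% CI 93.8 to 97.5%), against 94.4% of the others. For 4 it was found in replicate 1 alone, for 13 in replicate 2 alone and for 2, in psq and cic, in neither. The signals of the 451 had a Spearman correlation of 0.853 between the replicates, which is subject to the same selection. The log2 ratio of replicate 1 over replicate 2 had a median of −0.19 and an SD of 0.46 across them, against a median of −0.16 at other summits, and the replicate signals are not scaled for read number.

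Gene by gene, the summed signal was lower in replicate 1 in 34 of the 37 genes. The exceptions were CG1677 (log2 ratio 0.09), tara (0.09) and Tis11 (0.11). The largest differences were in plum (−0.36), with sums of 1146 in replicate 1 and 1473 in replicate 2, ed (−0.33), with 1036 and 1304, and jing (−0.31), with 1932 and 2398. Taking the 5944 strongest summits of each replicate alone, 31 of the 37 genes still held 10 or more in replicate 1, 30 in replicate 2 and 26 in both.

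**Figure D5:**
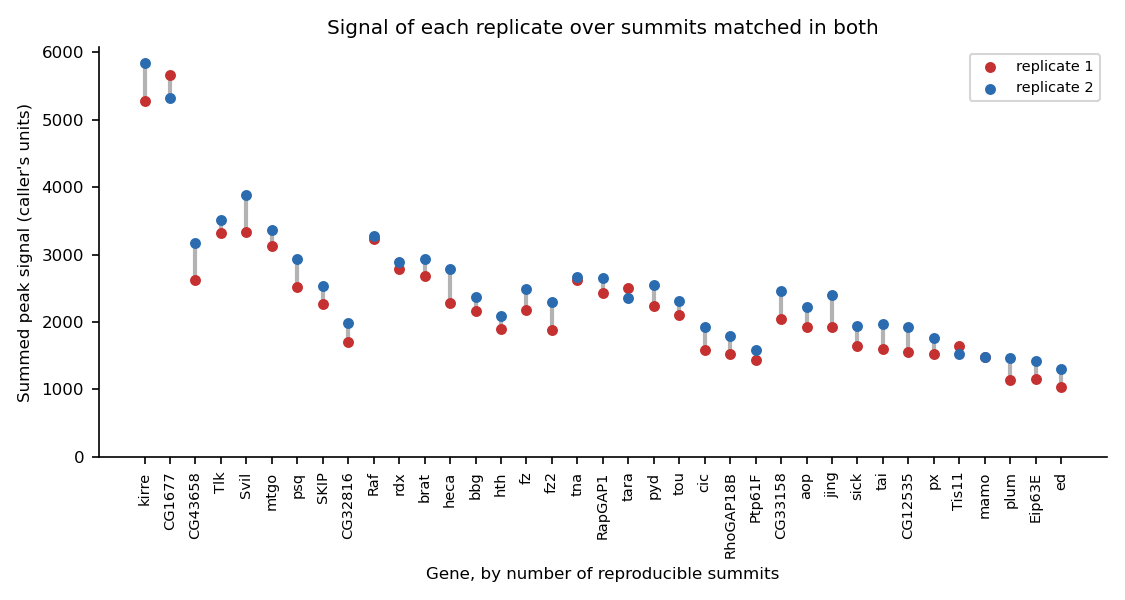
Summed peak signal over summits matched in both replicates (vertical axis, caller's units) for each of the 37 genes (horizontal axis, by number of summits), with replicate 1 in red and replicate 2 in blue, joined by a grey line. Replicate 1 is the lower point in 34 genes, and the exceptions are CG1677, tara and Tis11.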

How the data were processed

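CG8216-eGFP ChIP-seq was deposited as peak lists of 2 libraries of 1 group. Per the file headers and labels, the authors made a relaxed list of 30000 peaks for each replicate and for both pooled, and an IDR-thresholded list from these. The deposited signal is the peak caller's value, in units that no label or header explains. For the aligner, the caller and their versions, no name is given in the sources used here. Depth is unknown, since the files hold no read counts.

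The 5944 summits (1-based) of the reproducible list on dm6 were placed in protein-coding gene bodies of Ensembl release 115 (FlyBase 6.54). Classes were assigned in the order start site (within 500 bp), 5′ untranslated, coding, 3′ untranslated, other exon, intron. Expected gaps were calculated for independent uniform positions in each gene. Replicate summits were matched within 100 bp. Words were searched on both strands in 200 bp windows. Shares carry exact Clopper-Pearson 95% intervals, which cover counting error over summits only.

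The genes, the lists, the words and the naming rule were chosen with earlier results of these data known. Named were the genes highest or lowest in summits, density, signal, spacing, top-summit share and replicate difference, and up to 4 per list; other values complete the account of the 37 genes. Scripts ran in Python 3.11.15 with pandas 2.3.3, NumPy 2.4.6, matplotlib 3.10.9 and SciPy 1.17.1, and were tested on simulated data. The dm3 lists and the control libraries were not used.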

Additional observations from a re-analysis of the deposited data

How the results depend on the processing

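Of 60 values recomputed under an alternative, 34 stayed within their limit (1.5 times for counts, the interval for shares, the replicate spread for other values) and 26 moved. With only the summits above the median signal of the list, 4 genes and 47 summits remained, which is 1.58% of that list, at 0.790 per 10 kb, a median gap of 5737 bp and a median signal of 493, with 4.26% of summits near an own start site and 23.4% with CAGTGCA or CAGTGTA. This list holds fewer summits, so fewer genes reach 10. With 8 summits as the limit there were 80 genes and 826 summits, and with 12 there were 17 and 262. With chains of summits within 500 bp counted once, 26 of the 37 genes kept 10, with 6.05% of summits, 1.22 per 10 kb and a median gap of 3560 bp. Adding 1000 bp at both gene ends gave 47 genes and 9.62% of summits. Leaving out summits in another gene gave 34, without CG32816, CG33158 and Ptp61F.

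Using the list of a single replicate, the density ran from 1.40 to 1.59 per 10 kb, the median gap from 2571 to 2772 bp and the median signal from 134 to 154. The main median of 284 is from the pooled list, where signals are mostly higher than in a single replicate, so these medians are not like for like. Without replicate 1 there were 34 genes, of which 30 were among the 37, and without replicate 2 there were 40, of which 31 were. Start-site windows of 250 and 1000 bp gave 3.83% and 11.9%, word windows of 100 and 400 bp gave 5.74% and 25.5%, and matching within 50 and 250 bp gave 81.5% and 99.8%, as these settings narrow or widen the windows. No paired analysis was possible because there is only 1 group. Read depth is unknown, so the depth limit on weak summits cannot be stated.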

Other observations

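Of the 83 protein-coding genes of 100 kb or more, 27 held no reproducible summit, and the genes below were picked from them after their values were seen. Several still held summits of the relaxed pooled list of 30000, which includes background. bru3, an RNA-binding protein of 281 kb, held 26, dpr6, an immunoglobulin-domain protein of 165 kb, held 24, Sh, a voltage-gated potassium channel of 139 kb, held 14, and Lar, a receptor tyrosine phosphatase of 145 kb, held 11. Others, 11 of the 27, are listed with none in either list, among them Myo81F (1966 kb), Pzl (709 kb), lovit (434 kb) and Snap25 (225 kb). Whether reads can be placed uniquely along these genes was not tested, so these zeros are not shown to be a lack of binding. The 37 genes held a median of 43 relaxed summits (range 20 to 153).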
